A study of Saccharomyces cerevisiae S288C with 6 samples.

Results

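The high-affinity iron uptake genes are 10 genes of budding yeast chosen by name: the ferroxidase genes FET3 and FET5, the iron permease genes FTR1 and FTH1, the siderophore transporter genes ARN1, ARN2 and SIT1, the cell wall mannoprotein genes FIT2 and FIT3, and FET4. All 10 were found among the 7126 rows of the deposited table. The list was drawn up with earlier results of these data known, so it was not chosen blind to their values. Messenger RNA was measured in 3 libraries of the strain labelled EDS615, genotype ltv1∆/ltv1∆, in which both copies of LTV1 are deleted, and in 3 libraries of the wild type strain labelled EDS76. Both are of the S288C background, the laboratory strain behind the reference genome, and both were harvested from rich medium kept at 30 °C, when their optical density stood between 0.5 and 0.6, with no other treatment labelled. The comparison asks how expression differs without Ltv1, an assembly factor of the small ribosomal subunit. The labels name 1 strain for each genotype, and nothing in them says that the replicates came from separate cultures. The p-values therefore measure only the spread between these libraries, which may be technical.

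Yeast takes up iron at the cell surface by several routes. Cell surface reductases turn ferric iron into ferrous iron, the copper enzyme Fet3 oxidises it again, and the permease Ftr1, which forms a complex with Fet3, carries it into the cell. Fet5 and Fth1 form the corresponding pair at the membrane of the vacuole, where they release stored iron. Arn1, Arn2 and Sit1 carry iron bound to siderophores, small chelators that other microbes secrete, and the mannoproteins Fit2 and Fit3 hold such iron in the cell wall. Fet4 is a low-affinity transporter of ferrous iron, so it differs from the others in the affinity that the group's name gives. When iron is scarce the transcription factors Aft1 and Aft2 switch on most of these genes.

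Aft1 is known to bind a short motif upstream of its targets, and the upstream sequence of each gene was searched for the core of that motif. The motif TGCACCC, read on both strands, was present in the 500 bases before the start codon of 9 of the 10 genes. It was present in 139 of 5992 such windows of all genes (2.32%). Most of the 10 genes are known targets of Aft1, so this contrast follows largely from their choice and tests nothing about these libraries. FIT2 held 4 matches, FTR1 and FIT3 held 2 each, and the other 6 genes held 1 each. FTH1 had no match to TGCACCC in this window and 1 to the shorter GCACCC, which 7.63% of all windows held. The sequences below show the match, in capitals, for FET3 and FTR1, the genes that differed between the groups, and for 5 genes that did not pass the test, with FTH1 last. They were read from the RefSeq copy of build R64 on the strand of the gene, 5′ to 3′, and where the motif lies on the other strand its reverse complement GGGTGCA is in capitals.
FET3: atcttcaaaagTGCACCCatttgcaggtg
FTR1 far: tttccaggccaGGGTGCAgaaatactatt
FTR1 near: gcgtagatgaaTGCACCCgatttctaagt
FET5: tgtattcagtcTGCACCCtgtttcgccat
ARN1: atttatcaaaaTGCACCCataaaagcagg
SIT1: aacacatttgaGGGTGCAatctggttcgt
FET4: gccttcttaatTGCACCCattagtttagc
FTH1: ggttcaaaaatGGGTGCggtgcggccgg
The FET3 stretch lies at chrXIII:388560-388588 on the plus strand, with its motif starting 251 bases before the start codon. The far and near stretches of FTR1 lie at chrV:462088-462116 and chrV:461898-461926 on the minus strand, with motifs starting 365 and 175 bases before the start codon. In FET5 (chrVI:49000-49028, plus strand) the motif starts 128 bases before the start codon. In ARN1 (chrVIII:21214-21242, minus strand) it starts 260 bases before. In SIT1 (chrV:27458-27486, plus strand) it starts 188 bases before, and in FET4 (chrXIII:914734-914762, minus strand) 213 bases before. The FTH1 stretch lies at chrII:634957-634984 on the plus strand. These are matches of letters, and no binding was measured.

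**Figure D1:**
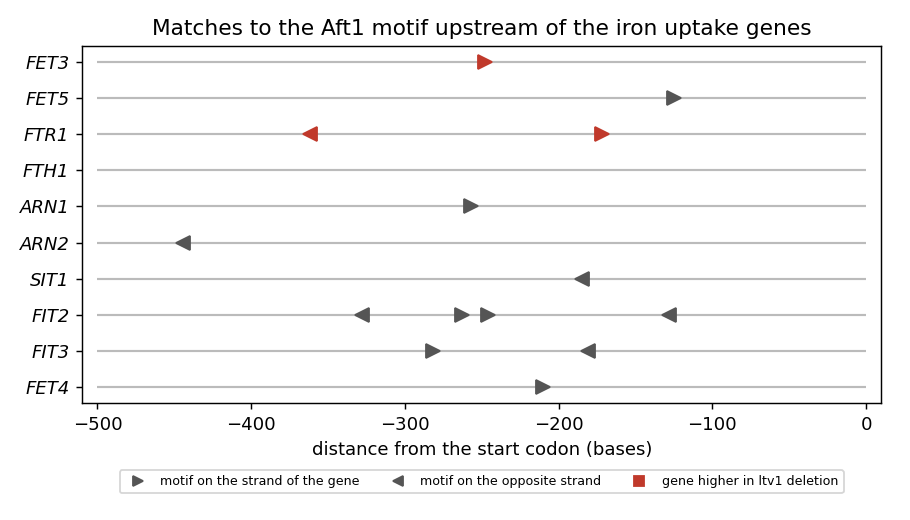
Matches to the Aft1 motif core in the 500 bases upstream of the start codon of each of the 10 genes, with distance from the start codon in bases on the horizontal axis. Triangles point right for the strand of the gene and left for the other strand, and red marks FET3 and FTR1, which were higher in the libraries labelled ltv1 deletion. FIT2 has 4 matches and did not pass the test, and FTH1 has none.

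The deposited values gave whole reads that summed to 1077569, 1080176 and 1206279 in ltv1 deletion 1, 2 and 3, and to between 1002573 and 1248710 in the wild type libraries. A value of 1 read is between 0.914 and 1.07 normalized read counts. The targeted gene, LTV1, went against the labels. It had 680, 3.22 and 6.40 normalized read counts in ltv1 deletion 1, 2 and 3, against 29.2, 191 and 8.77 in wild type 1, 2 and 3. The highest of the 6 values is thus in a library labelled ltv1 deletion, so every direction below goes by the labels, which LTV1 contradicts in at least 1 library. How much of LTV1 was deleted is not stated in the labels, and a tag from a part left in place could not check them. The LTV1 reads also differed within each strain, with 647, 3 and 7 in ltv1 deletion 1, 2 and 3. Wild type 1, 2 and 3 had 30, 183 and 9. The cause of these differences between libraries of the same strain was not tested. Of the 18 genes listed as specific to haploid cells or to one mating type, 7 were tested and limma called 0 of these 7. Of the 7, STE4, chosen after its values were seen, had an unadjusted p under 0.05 and was called lower by edgeR on the recovered reads. The summed level of the 8 haploid-specific genes was 46.6 to 78.5 in the deletion libraries and 89.6 to 171 in wild type. STE4 made up most of each sum, with 42.0, 49.4 and 25.6 in ltv1 deletion 1, 2 and 3, against 124, 59.4 and 87.7 in wild type 1, 2 and 3. In the other tested genes of that list the groups overlapped. Limma called 898 of 5663 genes over the whole table, 503 of them higher, and the median log2 fold change of all genes tested was -0.02.

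Of the 10 iron uptake genes, FET3 and FTR1, which encode the partners of the cell surface complex, were higher in the libraries labelled ltv1 deletion. FET3 was 5.24-fold higher and FTR1 3.05-fold higher on the log2(value + 1) scale. The other 7 genes that could be tested did not pass, and FIT3 had too few reads to be tested. Among the 9 tested genes 2 were called, both higher, which is 22.2% of them. Over all genes tested 15.9% were called in either direction and 8.88% higher. The median log2 fold change of the 9 genes was 0.56, and 8 of the 9 had a positive value. Over all genes tested 2784 of 5663 had a positive value. Of the 8, ARN1 and ARN2 lay nearest to no change, at 0.15 and 0.03. In these bulk samples more cells with a transcript and more transcript per cell cannot be told apart.

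FET3 encodes the multicopper ferroxidase of the plasma membrane (YMR058W, chromosome XIII, 388822 to 390732, build R64). Its normalized read count was 25.2, 38.7 and 43.0 in ltv1 deletion 1, 2 and 3, against 2.92, 9.37 and 6.82 in wild type 1, 2 and 3. These values come from 24, 36 and 47 reads in the deletion libraries and from 3, 9 and 7 reads in wild type. The groups did not overlap, and wild type 1 stood lowest, at the floor of 3 reads. The mean was 35.6 ± 9.25 in ltv1 deletion and 6.37 ± 3.25 in wild type (SD, n = 3 each). The log2 fold change was 2.39 ± 0.40 (standard error, limma, adjusted p = 0.0157). Without ltv1 deletion 2 the adjusted p of FET3 was 0.0505 and without ltv1 deletion 3 it was 0.0596, while its log2 fold change was 2.31 and 2.24.

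FTR1 encodes the permease that works with Fet3 (YER145C, chromosome V, 460526 to 461740). Its normalized read count was 399, 206 and 258 in ltv1 deletion 1, 2 and 3, against 87.5, 107 and 78.0 in wild type 1, 2 and 3. All 3 deletion libraries lay above all 3 wild type libraries, and ltv1 deletion 1 was the highest. The mean was 287.84 ± 100.01 in ltv1 deletion and 90.9 ± 14.9 in wild type (SD, n = 3 each). The log2 fold change was 1.61 ± 0.30 (standard error, limma, adjusted p = 0.0190). Without ltv1 deletion 1 the adjusted p of FTR1 was 0.0553 and without ltv1 deletion 3 it was 0.0657, at log2 fold changes of 1.35 and 1.66. Without both ltv1 deletion 1 and wild type 3, whose LTV1 reads were out of place, FET3 had a log2 fold change of 2.71 (limma, adjusted p = 0.0890) and FTR1 one of 1.24 (limma, adjusted p = 0.105).

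The exact two-sided permutation p was 0.1 for FET3 and 0.1 for FTR1, the smallest that 3 libraries against 3 can give. FET3 and FTR1 were the members whose groups did not overlap, 2 of the 9 tested and both higher. Of all genes tested 41.6% had no overlap between the groups, and 21.6% had none with the deletion libraries higher. EdgeR on the recovered reads called FET3 and FTR1 as well, with adjusted p-values of 0.00753 and 0.00735, and no other member. It called 19.8% of all genes in either direction and 10.5% higher. In the authors' deposited table the log2 fold change was 1.77 for FET3 with an adjusted p of 0.0946. In the authors' deposited table that of FTR1 was 1.345 with an adjusted p of 0.244, so neither passed 0.05 there, nor did any other member with an adjusted p in that table, where FIT3 has none. That table has an adjusted p below 0.05 for 1.57% of its genes with an adjusted p, against 15.9% called by limma here. It has a p-value of exactly 1 for 3539 of 6798 genes, among them FET5 and FIT2, at log2 fold changes of 0.20 and 0.33. The fold change that the authors' test took as its null is not known here. Their p-values may therefore not answer the same question as those of limma. The mean level given with that fit is not the mean of these 6 libraries, and the reason was not tested.

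**Figure D2:**
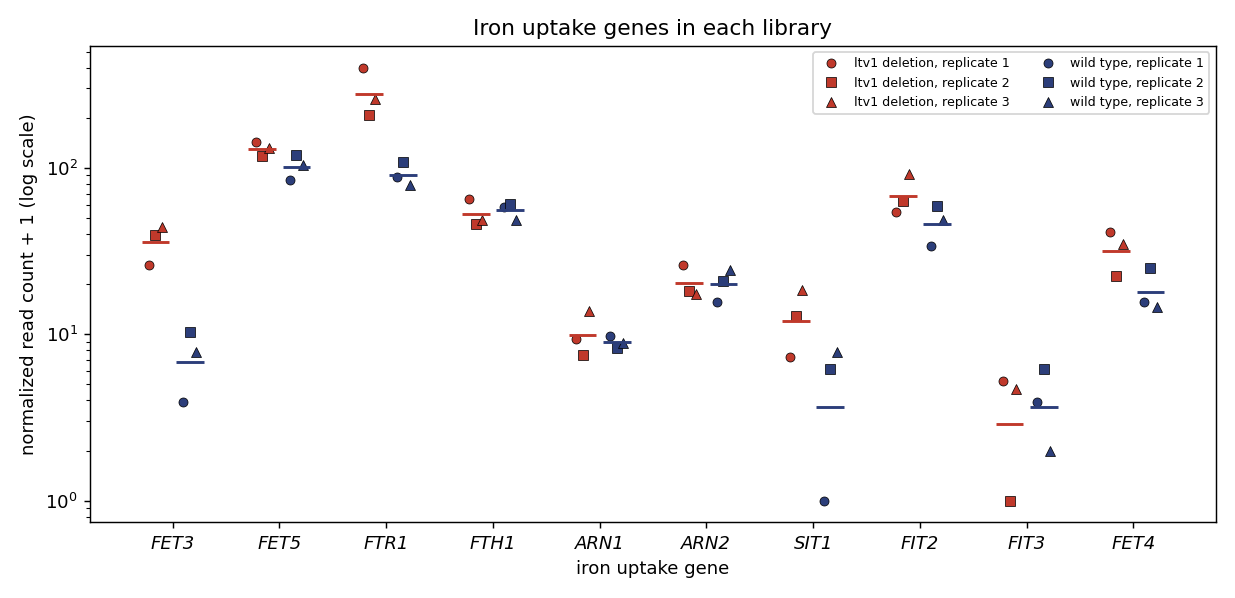
Normalized read count + 1, on a log scale, of the 10 iron uptake genes in each of the 3 libraries labelled ltv1 deletion (red, left of each pair) and the 3 labelled wild type (blue), with the replicate number as marker shape and horizontal lines at the geometric means. FET3 and FTR1 have all red points above all blue ones, and the groups overlap in the other 8 genes.

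The vacuolar counterparts of this complex did not pass the test. FET5, the ferroxidase of the vacuolar membrane (YFL041W, chromosome VI, 49139 to 51007), had a normalized read count of 143, 117 and 129.8 in ltv1 deletion 1, 2 and 3, against 83.6, 119 and 102 in wild type 1, 2 and 3. The groups overlapped, as wild type 2 lay above ltv1 deletion 2. Its log2 fold change was 0.36, with a 95% interval of -0.17 to 0.90 (limma, adjusted p = 0.292). FTH1, the vacuolar permease (YBR207W, chromosome II, 635146 to 636543), had 64.1, 45.1 and 47.5 in ltv1 deletion 1, 2 and 3, against 57.3, 59.4 and 47.8 in wild type 1, 2 and 3. The spread within each group covered the difference, with a log2 fold change of -0.08 and an interval of -0.63 to 0.47 (limma, adjusted p = 0.843).

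The difference between the surface and the vacuolar genes was set out library by library, as the log2 ratio of their values + 1. The ratio of FTR1 to FTH1 was 2.62, 2.17 and 2.41 in ltv1 deletion 1, 2 and 3, against 0.60, 0.84 and 0.70 in wild type 1, 2 and 3. The groups lay apart, by 1.69 on the log2 scale (exact two-sided permutation p = 0.1, the smallest possible, n = 3 each). The ratio of FET3 to FET5 was -2.46, -1.57 and -1.57 in ltv1 deletion 1, 2 and 3, against -4.43, -3.53 and -3.72 in wild type 1, 2 and 3. That difference was 2.03 (exact two-sided permutation p = 0.1, n = 3 each). The ratio of FET3 to FTR1, the partners at the surface, differed by 0.78 between groups that overlapped (exact two-sided permutation p = 0.3, n = 3 each). These ratios compare how far each pair differed between groups, and the ratio within 1 library is no comparison of transcript numbers. FET3 and FTR1 alone already parted the groups, so their ratios to FET5 and FTH1 largely follow from that and are no separate test. How many other gene pairs part the groups was not computed.

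None of the 3 siderophore transporter genes passed the test. SIT1 encodes the transporter of ferrioxamine-type siderophores (YEL065W, chromosome V, 27657 to 29543). Its normalized read count was 6.31, 11.8 and 17.4 in ltv1 deletion 1, 2 and 3, against 0, 5.21 and 6.82 in wild type 1, 2 and 3. The groups overlapped, since ltv1 deletion 1 lay below wild type 3, and wild type 1 had 0 reads, which allows up to 2.92 normalized read counts at a limit of 3 reads. Its log2 fold change was 1.72 ± 0.76 (standard error, limma, adjusted p = 0.155), and 0.78 without wild type 1. ARN1, a transporter of ferrichromes (YHL040C, chromosome VIII, 19088 to 20971) had 8.41, 6.45 and 12.8 in ltv1 deletion 1, 2 and 3, against 8.75, 7.29 and 7.80 in wild type 1, 2 and 3. ARN2, a transporter of triacetylfusarinine C (YHL047C, chromosome VIII, 8351 to 10213) had 25.2, 17.2 and 16.4 in ltv1 deletion 1, 2 and 3, against 14.6, 19.8 and 23.4 in wild type 1, 2 and 3. Neither gene parted the groups, and the log2 fold changes were 0.15 for ARN1 (interval -0.49 to 0.79) and 0.03 for ARN2 (interval -0.61 to 0.66).

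The mannoprotein genes FIT2 and FIT3 are neighbours on chromosome XV and point towards each other. FIT2 (YOR382W, 1059531 to 1059992) had a normalized read count of 53.6, 62.3 and 90.5 in ltv1 deletion 1, 2 and 3, against 33.04, 58.3 and 47.8 in wild type 1, 2 and 3. The groups overlapped at wild type 2, and the log2 fold change was 0.56 with an interval of -0.15 to 1.27 (limma, adjusted p = 0.228). FIT3 (YOR383C, 1060441 to 1061055) had 4, 0 and 4 reads in ltv1 deletion 1, 2 and 3, against 3, 5 and 1 in wild type 1, 2 and 3. At this depth a difference in FIT3 was not detectable, and its mean of 2.83 lay under the minimum of 5 set for testing. The coding parts of the 2 genes are 448 bases apart, and the labels do not state whether counting used strand, so reads past the end of one gene may have been counted for the other.

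FET4, the low-affinity transporter (YMR319C, chromosome XIII, 912880 to 914538), had a normalized read count of 39.9, 21.5 and 33.8 in ltv1 deletion 1, 2 and 3, against 14.6, 24.0 and 13.6 in wild type 1, 2 and 3. Wild type 2 lay above ltv1 deletion 2, so the groups overlapped. The log2 fold change was 0.83 ± 0.32 (standard error), which passed at an unadjusted p of 0.0342 but not after adjustment (limma, adjusted p = 0.115).

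**Figure D3:**
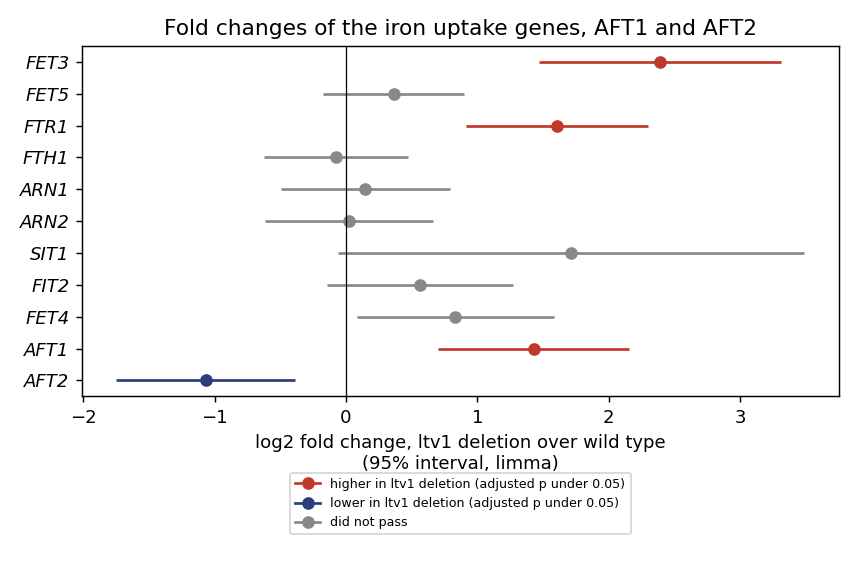
Log2 fold change of the 9 tested iron uptake genes and of AFT1 and AFT2, ltv1 deletion over wild type, with 95% intervals from limma (n = 3 each). FET3, FTR1 and AFT1 are marked as higher and AFT2 as lower, and the intervals of FET5, FTH1, ARN1, ARN2, SIT1 and FIT2 include 0.

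Among themselves the genes varied in different libraries. Relative to each gene's own mean on the log2 scale, FET3 ranged from -1.996 in wild type 1 to 1.49 in ltv1 deletion 3. FTR1 ranged from -1.01 in wild type 3 to 1.33 in ltv1 deletion 1, so the library with the most FTR1 was the deletion library with the least FET3. Of the 9 tested genes, 5 were lowest in wild type 1, 2 in ltv1 deletion 2 and 2 in wild type 3. The highest value was in ltv1 deletion 1 for 5 genes and in ltv1 deletion 3 for 4. Wild type 1 was also the library furthest out on the first principal component of all genes, at 59.4 against 15.5 and 27.9 in wild type 2 and 3, with the deletion libraries between -38.7 and -28.5. Without wild type 1 the log2 fold change was 1.99 for FET3 (limma, adjusted p = 0.0172) and 1.59 for FTR1 (limma, adjusted p = 0.0392). FTR1 supplied 51.9%, 39.2% and 39.5% of the summed normalized counts of the 10 genes in ltv1 deletion 1, 2 and 3, against 28.7%, 25.9% and 23.3% in wild type 1, 2 and 3. No 2 members shared an exact run of over 15 bases in the coding sequence and the 300 bases after it, against reads of 84 to 90 cycles.

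The genes for the activators Aft1 and Aft2 differed in opposite directions. AFT1, the main activator of the iron regulon (YGL071W), was higher, with 98.8, 118 and 159.9 normalized read counts in ltv1 deletion 1, 2 and 3, against 49.6, 59.4 and 31.2 in wild type 1, 2 and 3. The groups lay apart, as in 41.6% of all genes tested, and the log2 fold change was 1.43 ± 0.31 (standard error, limma, adjusted p = 0.0242). AFT2, its paralog (YPL202C), was lower, with 5.26, 8.60 and 8.22 in ltv1 deletion 1, 2 and 3, against 11.7, 17.7 and 20.5 in wild type 1, 2 and 3. Its log2 fold change was -1.07 (limma, adjusted p = 0.0472), and edgeR on the recovered reads did not call it (adjusted p = 0.0823). In limma AFT1 missed the threshold without wild type 3 (adjusted p = 0.0559) and without ltv1 deletion 1, 2 or 3 (adjusted p = 0.0623, 0.0692 and 0.0855). AFT1 also missed it with the replicate block (limma, adjusted p = 0.0694) and without both ltv1 deletion 1 and wild type 3 (limma, adjusted p = 0.103). It passed in 11 of the 12 alternatives that kept every library and in 2 of the 7 that left libraries out. AFT2 passed in 3 of its 18 alternatives. It missed the threshold when any single library other than wild type 1 was left out, with adjusted p-values of 0.0854 to 0.136 in limma. TIS11, also called CTH2, encodes a protein that degrades messages of iron-using proteins when iron is scarce, and it had 4 reads in the 3 deletion libraries and 5 in the 3 wild type libraries. Of the 9 tested genes in the list of 10 regulators, 1 rose and 1 fell, and the median log2 fold change was -0.31.

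The motif was then set against the calls of all genes. Of the 119 tested genes with TGCACCC in the window, limma called 7 higher (5.88%) and 9 lower (7.56%) in ltv1 deletion. Over all genes tested 8.88% were higher and 6.98% lower. With the iron uptake genes left out, 5 of 111 were higher and 9 lower, and the median log2 fold change was 0.01. The number of matches did not order the members, as FIT2 with 4 did not pass and FET3 with 1 did.

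Other genes of iron metabolism were read from the same fit, in lists of named genes. Of the 8 ferric reductase genes, 7 were tested and limma called 0. At an unadjusted p under 0.05 limma had 2, FRE1 higher and FRE6 lower. FRE6, named after its values were seen, had a log2 fold change of -0.65 (limma, unadjusted p = 0.0306 and adjusted p = 0.108). EdgeR on the recovered reads called 0 and DESeq2 called 1, FRE1, against 22.2% of all genes to which DESeq2 gave an adjusted p. FRE1, the main surface reductase, had 108, 53.7 and 81.3 normalized read counts in ltv1 deletion 1, 2 and 3, against 27.2, 48.9 and 47.8 in wild type 1, 2 and 3, and missed the threshold (limma, adjusted p = 0.0999). It was the reductase with the largest positive log2 fold change, 0.95, and was chosen for this after its value was seen. Of 6 tested among 8 other iron regulon genes 1 rose and 5 did not pass the test, all 5 with a negative log2 fold change, and the list median was -0.39. The gene that rose was COT1, a vacuolar transporter of zinc and cobalt, with 27.3, 40.8 and 53.9 in ltv1 deletion 1, 2 and 3, against 16.5, 13.5 and 15.6 in wild type 1, 2 and 3 (log2 fold change 1.32 and limma adjusted p = 0.0240). COT1 missed the threshold in limma without ltv1 deletion 2 or 3 or wild type 3 (adjusted p = 0.0741, 0.0797 and 0.0571). It also missed it with the replicate block (limma, adjusted p = 0.0598) and without both ltv1 deletion 1 and wild type 3 (limma, adjusted p = 0.0910). ENB1, the transporter of the siderophore enterobactin and named after its values were seen, had 78.8, 44.1 and 47.5 in ltv1 deletion 1, 2 and 3, against 166, 148 and 65.3 in wild type 1, 2 and 3. The groups overlapped, and its log2 fold change was -1.08 (limma, unadjusted p = 0.0305 and adjusted p = 0.108). DESeq2 on the recovered reads called ENB1 lower, and edgeR did not call it.

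Fet3 needs copper, which Ctr1 imports and Atx1 and Ccc2 deliver. Of 7 copper supply genes 0 were called by limma, and the list median was -0.16. At an unadjusted p under 0.05 limma had 1 of them, ATX1, named after its values were seen, with a log2 fold change of -0.61 (limma, adjusted p = 0.111). EdgeR and DESeq2 on the recovered reads called 0 of the 7. CTR1, chosen after its values were seen, had 145, 68.8 and 101 normalized read counts in ltv1 deletion 1, 2 and 3, against 8.75, 105 and 71.1 in wild type 1, 2 and 3. Its low value was that of wild type 1, the library in which FET3 and SIT1 were also lowest.

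Of 19 tested iron-sulfur cluster assembly genes 2 fell, 0 rose and 17 did not pass the test, with a list median of -0.40. The 2 are 10.5% of the list, against 6.98% of all genes called lower and 15.9% called in either direction. EdgeR on the recovered reads called 5 of the 19 lower, against 9.25% of all genes, and by either test 0 were higher at an unadjusted p under 0.05. ISA2, which acts late in cluster assembly in the mitochondrion, had 10.5, 13.97 and 16.4 in ltv1 deletion 1, 2 and 3, against 77.7, 50.0 and 66.3 in wild type 1, 2 and 3. It was 4.48-fold lower, with a log2 fold change of -2.16 (limma, adjusted p = 0.0109). IBA57, which works with Isa2, had 26.3, 29.0 and 16.4 in ltv1 deletion 1, 2 and 3, against 129.3, 82.3 and 155.0 in wild type 1, 2 and 3, a log2 fold change of -2.30 (limma, adjusted p = 0.0127). The groups lay apart in both genes. YFH1, the yeast frataxin gene, was the 1 of 6 storage and transport genes that fell, with 65.2, 61.3 and 69.5 in ltv1 deletion 1, 2 and 3, against 118, 103 and 128 in wild type 1, 2 and 3 (log2 fold change -0.82, limma adjusted p = 0.0371).

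Of 8 heme synthesis genes 1 fell, HEM14, the protoporphyrinogen oxidase gene, at a log2 fold change of -1.79 (limma, adjusted p = 0.0171). It had 34.7, 38.7 and 20.1 in ltv1 deletion 1, 2 and 3, against 136, 84.4 and 104 in wild type 1, 2 and 3. Of 14 tested genes for enzymes that use iron, 1 rose and 1 fell. The list median was 0.51, near the 0.56 of the iron uptake genes, and 9 of the 14 had a positive log2 fold change. At an unadjusted p under 0.05 limma had 6 of them, 5 higher. EdgeR on the recovered reads called 2 of them higher and 1 lower, against 10.5% and 9.25% of all genes. ILV3, an iron-sulfur enzyme of branched-chain amino acid synthesis, rose by 1.51 on the log2 scale (limma, adjusted p = 0.0227). CTT1, the cytosolic catalase, fell by 2.53 on the log2 scale (limma, adjusted p = 0.0317), with 54.7, 164 and 120 in ltv1 deletion 1, 2 and 3, against 588, 276 and 1326 in wild type 1, 2 and 3. Over the 8 related lists 3 of 76 tested genes rose and 6 fell, or 11.8% called, against the 15.9% of all genes. Of these 9 genes, YFH1, ILV3 and CTT1 missed the threshold without any 1 of wild type 1, wild type 3 and the deletion libraries, HEM14 without ltv1 deletion 1 or 3, and IBA57 without ltv1 deletion 3. YFH1, ILV3 and CTT1 also missed it with the replicate block, and YFH1 with no filter on low values (limma, adjusted p = 0.0583). Without both ltv1 deletion 1 and wild type 3, limma called 0 of the 9, and the log2 fold change of CTT1 was -1.52.

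**Figure D4:**
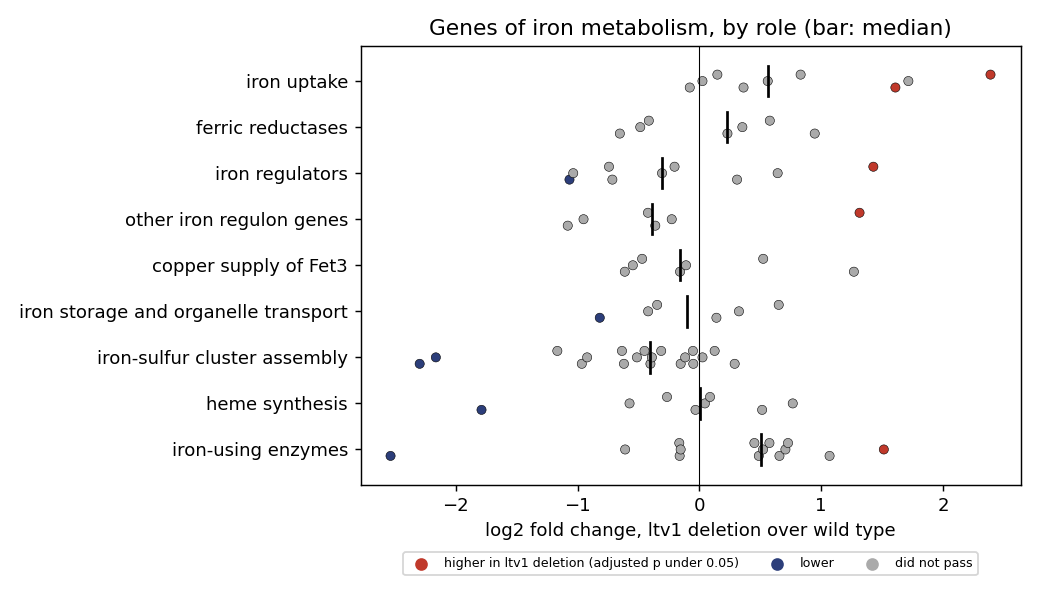
Log2 fold change, ltv1 deletion over wild type, of each tested gene of iron metabolism by list, with points as genes, bars as list medians, red for genes called higher at an adjusted p of 0.05, blue for genes called lower, and grey for the rest. The iron uptake genes have 2 red points and no blue one, and the iron-sulfur cluster list has 2 blue points and no red one.

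The 5 genes whose profile over the 6 libraries was most like the mean profile of the tested iron uptake genes were ZEO1, HPR1, LYS14, SUI3 and GCD11. Likeness was the root mean square difference between log2 values centred on each gene's mean, and it was 0.05 for ZEO1 and 0.09 for GCD11. The mean profile was 0.44, 0.23 and 0.59 in ltv1 deletion 1, 2 and 3, against -0.84, -0.11 and -0.31 in wild type 1, 2 and 3. The members themselves lay further from it, from 0.23 in FIT2 to 0.94 in SIT1. SUI3 had 7422, 5747 and 7114 normalized read counts in ltv1 deletion 1, 2 and 3, against 2952, 4445 and 3815 in wild type 1, 2 and 3, and none of the 5 passed limma's threshold (adjusted p from 0.0519 to 0.0702).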

How the data were processed

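Libraries of 3' tags with molecular identifiers were made from hot-phenol RNA and read over 84 to 90 cycles, per the labels' protocols. The submitters' processing notes name FastQC, Trim Galore, STAR, Salmon, DESeq2 1.34.0, R 4.1.3 and build R64, and the handling of identifiers and strand is not stated there. The authors deposited a normalized signal per gene and library, in which 100% of values above 0 were whole multiples, within 0.01, of the worth of 1 read. They also deposited a log2 fold change, its standard error (a score here) and p-values, which are quoted as theirs.

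From the signal, limma 3.58.1 in R 4.3.3 was run on log2(value + 1) for genes with a mean of at least 5, over all 5663 such genes, with Benjamini-Hochberg adjustment and a threshold of 0.05. A design for raw counts was not used, since the table holds counts divided by size factors. Fold changes on this scale understate changes of low genes. EdgeR 4.0.16, DESeq2 1.42.0 and limma-voom on the recovered reads were alternatives, with other scalings, filters and pseudocounts, a replicate block and each library left out. The procedure was tested on simulated data. FRA2 in the table is BOL2 of the lists. Beside LTV1 and the 10 genes, the text names each gene past the threshold in 8 related lists, AFT1, AFT2, TIS11 and the 5 nearest profiles, and any other is marked as chosen after its values were seen. Members and lists were chosen with earlier results of these data known. Floors cover counting error only.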

Additional observations from a re-analysis of the deposited data

How the results depend on the processing

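FET3 and FTR1 kept their direction under every alternative in which they were tested. With other pseudocounts, filters, scalings and tests and with the replicate block, FET3 passed in 11 of 11 (log2 fold change 1.85 to 2.53) and FTR1 in 12 of 12 (1.55 to 1.67). With a mean of at least 50, FET3 was not tested and 1 iron uptake gene was called. DESeq2 on the recovered reads called 14 related iron genes of the 76, against 22.2% of all genes with an adjusted p, and gave LTV1 a log2 fold change of 1.593, against 1.59 in edgeR. With 1 library left out, limma called 0 to 2 iron uptake genes, 1 to 11 related genes and 37 to 981 of all genes (higher 20 to 533, lower 17 to 448), with the lowest numbers without ltv1 deletion 3. Without both ltv1 deletion 1 and wild type 3, limma called 0 iron uptake genes, 0 related genes and 16 genes in all (12 higher, 4 lower), with 1445 at an unadjusted p under 0.05. Over all these exclusions the log2 fold change ranged from -0.33 to 0.016 in FTH1, from -0.092 to 0.35 in ARN1, from -0.16 to 0.17 in ARN2 and from -3.77 to 0.89 in LTV1. The cause of these changes was not tested, and each exclusion also leaves fewer libraries.

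The labels give both genotypes the replicate numbers 1 to 3. Deviations from the group means correlated across 5663 genes at -0.105, -0.198 and 0.0723 between libraries numbered 1, 2 and 3. The highest correlation was that of ltv1 deletion 1 with wild type 2 (0.278). The labels do not say what libraries with the same number share, and these 3 correlations cannot show whether they were paired. With the replicate block 430 genes were called, 279 higher and 151 lower, with 3 related iron genes and the same 2 iron uptake genes. Depth limits FIT3, SIT1, FET3 and ARN1 most, with 9, 12, 19 and 24 reads in the wild type libraries together.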
